A study of Mus musculus with 2 samples.

Results

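The loci of 10 genes of the naive pluripotency network, Klf2, Klf4, Klf5, Esrrb, Tfcp2l1, Zfp42, Prdm14, Tbx3, Fgf4 and Mybl2, were examined for promoter contacts in mouse embryonic stem (ES) cells whose 2 alleles can be told apart. A locus was taken as every 50 kb window that overlaps the RefSeq span of the gene on GRCm38, and windows up to 500 kb to either side served as context. The table analysed here had such windows for 8 of the 10 genes, 14 windows of 43941 in all, and 181 context windows. It had no window at Klf2 or Fgf4, so for these only part of the surroundings could be described. The cells were of the female line F121-6, which carries a 129 and a Mus castaneus (Cas) set of chromosomes, and were grown with LIF and serum on mitomycin-inactivated mouse embryonic fibroblasts. Promoter Capture Hi-C ligates crosslinked chromatin inside the nucleus and enriches ligation products that hold a baited promoter, here from HindIII fragments at 22225 promoters. Which windows hold a bait was not examined, and counts and distances of windows with and without one may not be comparable. Both samples, replicates 1 and 2, belonged to this single group, and each column of the table stood for the group as a whole, with no column for a single replicate. No spread between replicates could therefore be given, and the tests cover counting error or the spread between loci in these libraries. Contact counts hold no expression values, so the labelled cell type could not be checked against its markers.

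Naive pluripotency is the state of the early epiblast that mouse ES cells keep in culture with LIF. LIF acts through Stat3, which turns on Klf4 and Tfcp2l1, and these factors hold up a shared network with Esrrb, Klf2, Klf5 and Tbx3 around the core factors Oct4, Sox2 and Nanog. Prdm14 represses FGF receptor signalling and DNA methylation, Zfp42 (Rex1) is the most used marker of the state, and Mybl2 is a cell cycle factor of the Myb family. Fgf4 is not a transcription factor but the secreted growth factor whose signal moves ES cells out of the naive state.

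RefSeq promoter sequences on GRCm38.p6, which run from 250 bases before the start to 50 after it, were found for 7 of the 10 genes, in 8 entries. Those shown belong to the locus with the highest 129 share of the 5 that have both a sequence and a window (Mybl2), to both loci with the lowest share (Klf4 and Zfp42), and to both starts of Esrrb, which lie in different windows with very different contact counts. They are given 5′ to 3′, with capitals for letters that match a searched motif on either strand.
Mybl2 (chr2:163054385-163054684, plus strand): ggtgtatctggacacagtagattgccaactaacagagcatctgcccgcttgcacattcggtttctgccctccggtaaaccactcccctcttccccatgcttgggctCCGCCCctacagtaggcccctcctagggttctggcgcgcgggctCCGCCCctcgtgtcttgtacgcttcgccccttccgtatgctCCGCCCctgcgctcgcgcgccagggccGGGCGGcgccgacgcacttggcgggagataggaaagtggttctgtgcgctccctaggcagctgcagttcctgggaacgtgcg
Klf4 (chr4:55532426-55532725, minus strand): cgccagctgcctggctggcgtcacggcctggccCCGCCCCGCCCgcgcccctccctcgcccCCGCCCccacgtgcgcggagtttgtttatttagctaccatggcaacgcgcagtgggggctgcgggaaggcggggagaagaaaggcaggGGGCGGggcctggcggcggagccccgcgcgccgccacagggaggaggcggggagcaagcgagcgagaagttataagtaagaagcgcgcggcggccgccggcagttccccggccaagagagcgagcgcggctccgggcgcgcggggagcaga
Zfp42 (chr8:43306960-43307259, minus strand): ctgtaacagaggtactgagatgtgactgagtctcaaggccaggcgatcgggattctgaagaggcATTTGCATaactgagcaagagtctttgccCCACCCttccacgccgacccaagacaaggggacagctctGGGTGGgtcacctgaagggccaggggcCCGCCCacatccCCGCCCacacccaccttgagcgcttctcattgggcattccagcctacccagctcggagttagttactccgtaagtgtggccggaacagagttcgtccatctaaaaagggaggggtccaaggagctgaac
Esrrb, first start (chr12:86360867-86361166, plus strand): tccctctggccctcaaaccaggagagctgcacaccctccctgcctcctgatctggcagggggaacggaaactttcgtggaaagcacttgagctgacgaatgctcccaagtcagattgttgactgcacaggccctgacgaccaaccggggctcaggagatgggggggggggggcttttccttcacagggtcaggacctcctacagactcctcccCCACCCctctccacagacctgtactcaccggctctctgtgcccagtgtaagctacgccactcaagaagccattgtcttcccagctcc
Esrrb, second start (chr12:86421394-86421693, plus strand): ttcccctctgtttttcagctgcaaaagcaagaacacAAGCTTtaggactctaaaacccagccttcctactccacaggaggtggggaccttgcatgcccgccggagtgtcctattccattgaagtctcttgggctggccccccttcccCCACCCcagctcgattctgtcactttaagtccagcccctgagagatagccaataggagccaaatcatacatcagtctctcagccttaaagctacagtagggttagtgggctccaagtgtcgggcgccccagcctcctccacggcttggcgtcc
The motifs searched were the KLF box CCACCC, the GC box GGGCGG, the estrogen-related receptor element AAGGTCA, the octamer ATGCAAAT, the E2F sites TTTCGCGC, TTTGGCGC and TTTCCCGC, and the HindIII site AAGCTT. Matches of different motifs were counted separately even where they overlapped. Of 32851 RefSeq promoters of the same length, 31.5% held the KLF box, 35.7% the GC box, 4.72% the receptor element, 1.74% the octamer, 1.85% an E2F site and 7.46% a HindIII site. GC boxes numbered 4 in Mybl2, 4 in Klf4, 2 each in Zfp42, Klf2 and Fgf4, and 0 in Tfcp2l1 and at both starts of Esrrb. The Zfp42 promoter also had 1 octamer, the letters of the Oct4 binding site, and 2 KLF boxes, and Klf2 and each Esrrb start had 1 KLF box. None of the 8 entries held the receptor element or any of the exact E2F sequences listed. Other forms of the E2F site were not searched, so a promoter without a match may still hold such a site. The second Esrrb start had a HindIII site, at which the assay cuts. CpG dinucleotides numbered 40 in the Klf4 promoter, 32 in Klf2, 28 in Fgf4 and 26 in Mybl2. There were 21 in Tfcp2l1, 11 in Zfp42 and 7 at each Esrrb start, against a median of 7 over all promoters. These matches are descriptions of letters, not of bound sites.

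The first comparison asked how contacts were divided between the alleles at each locus. Summed over all windows, 57.6% of 88312953 interactions lay on 129 (50842396 against 37470557 on Cas), so a locus was set against this share. The value called the centred ratio is log2((129 + 1)/(Cas + 1)) minus its median over all windows, 0.45. The 129 share was highest at Prdm14, 70.8% of 842 interactions (exact Clopper-Pearson 95% interval 67.6 to 73.8%), and at Mybl2, 68.4% of 4120 (66.9 to 69.8%). Klf5 followed with 61.0% of 3024 (59.2 to 62.7%). Esrrb had 57.0% of 13962 (56.1 to 57.8%), Tfcp2l1 55.8% of 8557 (54.8 to 56.9%) and Tbx3 55.2% of 2846 (53.4 to 57.1%). Klf4 had 51.5% of 5341 (50.2 to 52.9%) and Zfp42 50.7% of 4083 (49.2 to 52.3%), the lowest of the 8. These intervals cover counting error only, since reads and ligation products in these counts need not be independent molecules.

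In this order, 4 of the 7 neighbouring pairs did not differ beyond counting error by a two-sided exact Fisher test adjusted over the 7 pairs. These were, by that exact test, Prdm14 and Mybl2 (adjusted p = 0.249), Esrrb and Tfcp2l1 (0.155), Tfcp2l1 and Tbx3 (0.601), and Klf4 and Zfp42 (0.530). The steps from Mybl2 to Klf5 (7.40 percentage points, adjusted exact p = 7.07e-10), from Klf5 to Esrrb (4.00 points, 0.000187) and from Tbx3 to Klf4 (3.73 points, 0.00312) were larger than counting error. The first of these 3 steps also exceeded the standard deviation of the 129 share between protein-coding loci, 5.17 points, and the others did not. That value describes single loci, and a difference between loci spreads more widely. Passing it therefore does not show that the step stands out from the spread between loci.

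**Figure D1:**
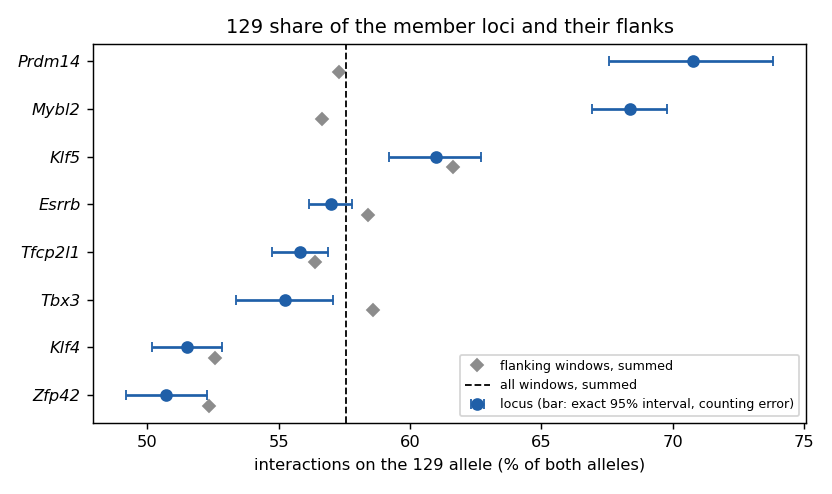
Share of interactions on the 129 allele (x axis, % of both alleles) at the 8 loci with windows (y axis); points with bars are the locus with its exact 95% interval, diamonds the summed flanking windows up to 500 kb either side, and the dashed line all windows. Prdm14 (70.8%) and Mybl2 (68.4%) lie well to the right of their flanks (57.3 and 56.7%), while the share of the other 6 loci minus that of their flanks runs from -3.37 to -0.567 percentage points.

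No locus was called by the two-sided beta-binomial test against the autosomal share, which allows for the spread between loci, with Benjamini-Hochberg adjustment at 0.05 over 18475 protein-coding loci, of which it called 1.36%. The unadjusted p was under 0.05 at 2 of the 8, Prdm14 (unadjusted beta-binomial p = 0.0126, adjusted 0.401) and Mybl2 (0.0348, adjusted 0.737), against 5.54% of all loci. At the remaining 6 the adjusted beta-binomial p was 1. A p that misses the threshold does not show that the alleles were alike there. The two-sided exact binomial test, which covers counting error alone, called 7 of the 8, all but Esrrb (adjusted exact binomial p = 0.202), but it also called 67.5% of all protein-coding loci. It put Prdm14, Mybl2 and Klf5 above the autosomal 129 share and Klf4, Zfp42, Tfcp2l1 and Tbx3 below it, although all 4 of the latter had more interactions on 129 than on Cas. Against an equal share on both alleles it called the same number, 7, all higher on 129, with Esrrb in place of Zfp42. Against that equal share it also called 93.8% of all loci, and 96.3% of those calls were higher on 129. Against the autosomal share, the exact binomial test called 29.2% of all loci above the share and 38.3% below it. Of the 14 single windows it called 10 against 51.4% of all windows, 4 above the share (27.1% of all) and 6 below it (24.3%). The beta-binomial test called 0 of the 14 against 0.944% of all windows, with 1 at an unadjusted p under 0.05, that of Prdm14, against 5.51%. The median centred ratio of the 8 loci was -0.08, beside -0.04 over all protein-coding loci with quartiles of -0.18 and 0.11. Klf4, Zfp42, Klf5, Prdm14 and Mybl2 thus lay outside these quartiles and Esrrb, Tfcp2l1 and Tbx3 within them. By definition as many of all loci lie outside the quartiles as within, so this split does not set the members apart.

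At Prdm14, which encodes a PR-domain zinc finger repressor, 1 window on chromosome 1 (13100001 to 13150000) covers the gene, and it also holds part of Ncoa2, a nuclear receptor coactivator gene. The 129 allele had 596 interactions there and the Cas allele 246, a centred ratio of 0.82, the highest of 21 in its neighbourhood (the locus and its 20 flanking windows). On 129 its count was 1.13 times the median of the 20 flanking windows (529), and on Cas 0.580 times theirs (424.5). On 129 it ranked 8 of 21 and on Cas 18 of 21, among flanking windows of 358 to 4731 interactions over both alleles. The window before it (13050001 to 13100000) leaned the same way, with 531 and 275 interactions and a centred ratio of 0.49, and the window after it (13150001 to 13200000), within Ncoa2, was at -0.02 with 481 and 356. The flanking median was -0.07, with 14 of 20 windows below 0. The window with most contacts was that of Tram1, a gene of the translocon, at 2850 and 1881, and the windows of Sulf1 and Slco5a1 with the most contacts were at -0.08 and 0.00. A further window at the edge (12600001 to 12650000), with no protein-coding gene, matched the ratio of Prdm14 at 465 and 192. The lowest ratio, -0.54, was in a window of Slco5a1 (12900001 to 12950000) with 314 and 334. The Prdm14 window had few contacts for a protein-coding locus, at the 6.56 percentile of all loci in count per window.

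At Mybl2 the pattern was narrower. Its single window on chromosome 2 (163050001 to 163100000), which also holds Gtsf1l, had 2817 interactions on 129 and 1303 on Cas, a centred ratio of 0.66 and the highest of 21 in its neighbourhood. The windows beside it were at -0.22 and -0.15. The one before it, with Sgk2 and Ift52, had the most contacts of the region, 5016 and 4279, and the one after it had 1042 and 842. In contrast to Prdm14, the Cas count of the Mybl2 window was close to the flanking median on Cas, 1.03 times 1269.5, while the 129 count was 1.70 times the flanking median of 1659. That 129 count ranked 4 of 21, and the flanking windows ran from 791 to 9295 interactions over both alleles. With such a spread, these values do not show which allele departed from its surroundings at either gene. None of the 20 flanking windows was called by the beta-binomial test here, nor around Prdm14, against 0.944% of all windows. Among the flanks the highest ratio was 0.62, in a window of the phosphatase gene Ptprt (162600001 to 162650000) with 603 and 287 interactions, and the lowest -0.33, in a window without a protein-coding gene (162750001 to 162800000) with 1717 and 1577.

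**Figure D2:**
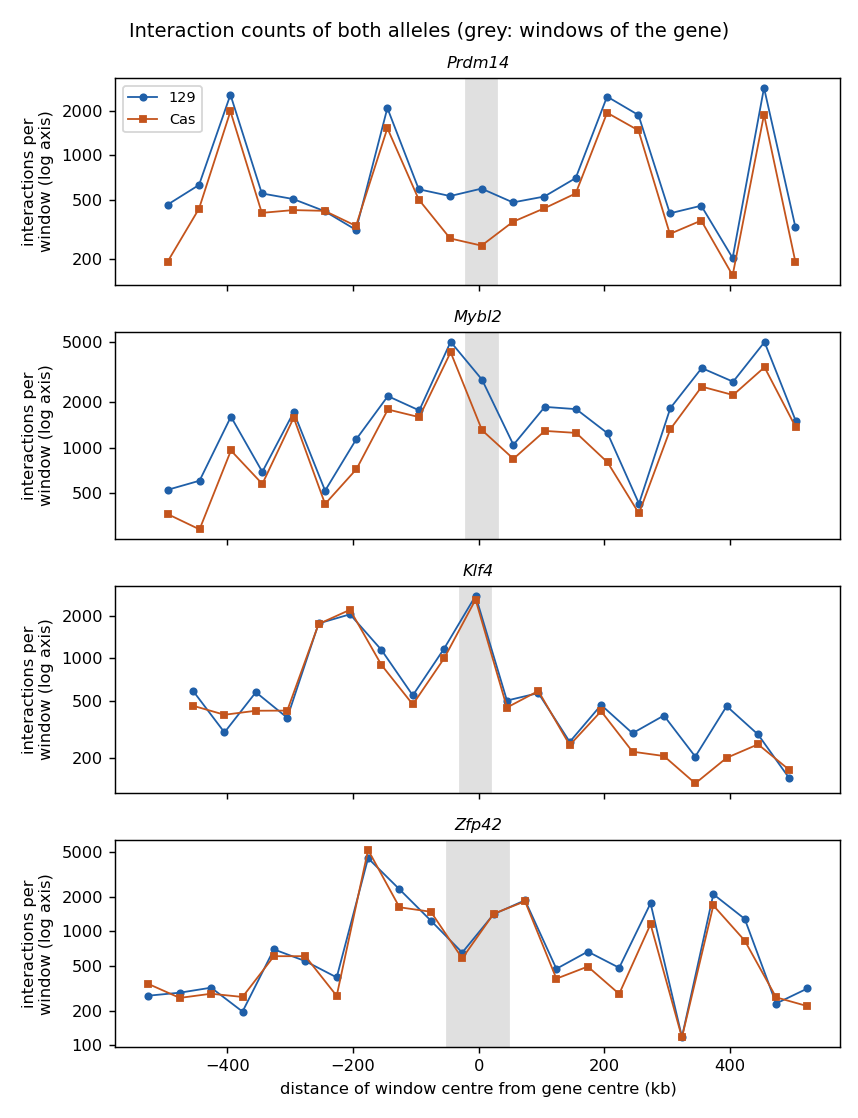
Interactions per 50 kb window (y axis, log scale) on the 129 (circles) and Cas (squares) allele against the distance of the window centre from the gene centre (x axis, kb) around Prdm14, Mybl2, Klf4 and Zfp42; grey bands are windows of the gene. The lines part at Prdm14 (596 and 246) and Mybl2 (2817 and 1303) and lie on each other at Klf4 (2751 and 2590) and at the second Zfp42 window (1420 and 1433).

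The KLF genes encode zinc finger factors that bind GC-rich and CACCC sequences. Klf4 lies in 1 window on chromosome 4 (55500001 to 55550000), where 2751 interactions fell on 129 and 2590 on Cas, a centred ratio of -0.37. The window was the richest in contacts of its neighbourhood on each allele, at 5.83 times the flanking median on 129 and 6.02 times on Cas. However, 17 of the 19 flanking windows held no protein-coding gene, and whether they held a bait was not examined. The region was below 0 as well: the flanking median was -0.24, 16 of 19 flanking windows were below 0, and the summed flanks held 52.6% on 129. All 9 windows before Klf4 were below 0. Among them, a pair with no protein-coding gene had the next highest counts, 1762 and 1746 (55250001 to 55300000) and 2041 and 2197 (55300001 to 55350000), with ratios of -0.44 and -0.56. RefSeq places long noncoding RNA genes in both. The window of the DNA repair gene Rad23b (55350001 to 55400000) had 1149 and 902. On the other side, 3 of 10 windows, none with a protein-coding gene, were above 0, the highest at 0.75 with 463 and 201 interactions (55900001 to 55950000). The lowest ratio of the region, -0.86, was in a window before the gene (55100001 to 55150000) with 303 and 403. The locus minus its flanking median was -0.12, against -0.07 with context up to 200 kb and -0.26 against the windows with a protein-coding gene, of which there were 2.

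Klf5 spans a pair of windows on chromosome 14. The first (99250001 to 99300000), shared with Pibf1, had 1420 interactions on 129 and 887 on Cas, and the second (99300001 to 99350000) had 424 and 293. The centred ratios were 0.23 and 0.08. The locus lay in the middle of a region whose ratio differed between its sides. Of the 10 windows before Klf5, 8 were above 0, with a median of 0.48 and 67.7% of their interactions on 129. Of the 10 after it, 7 were below 0, with a median of -0.07 and a share of 56.3%. The highest ratio of the region, 1.05, was in the window of the mitotic genes Mzt1 and Bora (99000001 to 99050000), with 3884 and 1367 interactions, and the next, 0.77, in the adjoining window of Bora, Dis3 and Pibf1, with 1091 and 466. The lowest, -0.74, was in a window without a protein-coding gene (99700001 to 99750000) with 315 and 385, and the highest count in the next window (99750001 to 99800000), also without one, with 3442 and 2678. Klf12, a KLF paralog that lies beyond the last context window, was also below 0, with 4203 and 4731 interactions over 9 windows, a share of 47.0% and a centred ratio of -0.62. The difference between sides was not tested. The Klf5 ratio minus the flanking median was 0.11, but -0.27 when flanking windows without a protein-coding gene were left out. Chromosome 14 as a whole held 55.3% on 129, and against its own chromosome Klf5 was at 0.31.

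For Klf2, on chromosome 8 (72319062 to 72321654), the nearest windows analysed were those of Hsh2d, Cib3, Fam32a and Ap1m1 before the gene (72200001 to 72250000) and of Nwd1 after it (72650001 to 72700000). They had 1780 and 1666 and 418 and 562 interactions on 129 and Cas, with centred ratios of -0.36 and -0.88. Only 10 of the 21 windows expected over the gene and its context were present, so the values cover part of the surroundings. Of the 10 context windows 9 were below 0, with a median of -0.39, and the summed share on 129 was 49.7%, against 55.9% on chromosome 8. The exception was the window of the olfactory receptor genes Olfr372 and Olfr373 (72050001 to 72100000), with 260 and 65 interactions and a ratio of 1.53. It was the only one of the 181 context windows that the beta-binomial test called (adjusted p = 0.0495), and that test called 0.944% of all windows. A single call among 181 windows thus does not set these surroundings apart. The lowest ratio, -0.91, was in a window of Cyp4f18 (72000001 to 72050000), with 1103 and 1514 interactions, and the highest count in that of Olfr373, Olfr374 and Tpm4 (72100001 to 72150000), with 2998 and 3295. The exact binomial test called 54.7% of the 181 context windows, near the 51.4% it called of all windows. Of these calls 39 were above the autosomal share and 60 below it. Of all windows it called 27.1% above and 24.3% below, the opposite order. This difference in direction was not tested, and neighbouring windows are not independent.

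Esrrb encodes an orphan nuclear receptor of the estrogen-related family. It spans 4 windows on chromosome 12, and the first (86350001 to 86400000), which holds the first start shown above, had 4883 interactions on 129 and 3864 on Cas. The second window (86400001 to 86450000), with the second start, had 997 and 702. The third (86450001 to 86500000) had 823 and 524, and the fourth (86500001 to 86550000) 1252 and 917. The first window thus held most of the contacts of the gene on each allele. Which of the 4 windows held a bait was not examined. The centred ratios were -0.11, 0.05, 0.20 and 0.00. Its 20 flanking windows ran from -0.22 to 0.39, both extremes in Ttll5, with a median of 0.04. Downstream, the windows with Vash1 and Angel1 (5828 and 4044) and Tmem63c (5955 and 3859) were at 0.07 and 0.17.

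Tfcp2l1, a grainyhead-like factor downstream of Stat3, spans a pair of windows on chromosome 1. The first (118600001 to 118650000), shared with Clasp1, had 2179 and 1810 interactions on 129 and Cas, and the second (118650001 to 118700000) 2597 and 1971. Each was over 4 times the flanking median on both alleles, from 4.40 to 5.64 times, and the centred ratios were -0.18 and -0.05. Of the 20 flanking windows 7 held no protein-coding gene, and bait positions were not examined. The flanks had a median of -0.11. Before the gene, 8 of 10 windows were below 0, among them that of the microtubule-binding gene Clasp1 with most contacts (6485 and 5158, -0.12). After it, 5 of 10 were above 0, the highest at 0.50 in Gli2, a Hedgehog pathway factor, with 1318 and 680. The lowest at a summed count of 100 or more was -0.36, in another window of Clasp1 (118400001 to 118450000) with 1084 and 1014.

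Zfp42 encodes a zinc finger protein related to YY1. It spans a pair of windows on chromosome 8. The first (43250001 to 43300000) had 651 interactions on 129 and 579 on Cas, and the second (43300001 to 43350000), which holds the start and the octamer, had 1420 and 1433. The centred ratios were -0.28 and -0.47. The second window was the only one of the 14 with fewer interactions on 129 than on Cas. The region leaned the same way on its side before Zfp42, where 8 of 10 windows were below 0 with a median of -0.45, and a window of Triml1 (43100001 to 43150000) had 4436 and 5258 interactions, the most of the neighbourhood. The lowest ratio, -0.88, was in a window without a protein-coding gene (42900001 to 42950000) with 196 and 264. The Zfp42 locus minus its flanking median was -0.15, and -0.32 with context up to 200 kb or -0.49 against windows with a protein-coding gene. After Zfp42 the median was -0.07, and windows of the Adam26a, Adam26b and Adam34l genes of the testis-expressed ADAM family reached 0.16, 0.31 and 0.18, while the other 2 Adam34l windows were at -0.44 and -0.12. Against its own chromosome the Zfp42 locus was at -0.30 in place of -0.41.

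Tbx3, a T-box factor, lies in 1 window on chromosome 5 (119650001 to 119700000), where 1572 interactions fell on 129 and 1274 on Cas, a ratio of -0.15. Its count was 4.38 times the flanking median on 129 and 4.92 times on Cas. Which of these windows held a bait was not examined, so the counts may not be comparable. Most of the 19 flanking windows held no protein-coding gene (15) and 12 were above 0. The adjoining windows were at 0.24 and 0.19, and the locus minus its flanking median of 0.18 was -0.33, a value with no test. Among the flanks the highest ratio was 1.02 (119250001 to 119300000), with 352 and 126 interactions, and the lowest -0.60 (119350001 to 119400000), with 370 and 410. The window of the RNA-binding protein gene Rbm19 with the most contacts (120100001 to 120150000) had 2082 and 1538. The next T-box gene, Tbx5, had 715 and 598 interactions over the 2 windows analysed. These lay at its ends, with ratios of -0.49 and 0.18, and the window between them was absent. Around Fgf4, on chromosome 7 (144861386 to 144865245), the window of the related Fgf3 (144800001 to 144850000) was the nearest analysed before the gene, with 793 and 619 interactions and a ratio of -0.10. The nearest after it (144950001 to 145000000) had 172 and 160. Only 13 of the 21 windows expected over Fgf4 and its context were present. Of 13 context windows 11 were below 0, with a median of -0.20, and that of Ppfia1, Fadd and Ano1 had the most contacts, 5000 and 3316, at 0.14. The highest ratio, 0.15, was in a window of the chloride channel gene Ano1 (144600001 to 144650000) and the lowest, -0.42, in the last window after the gene (145050001 to 145100000), with 157 and 153.

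**Figure D3:**
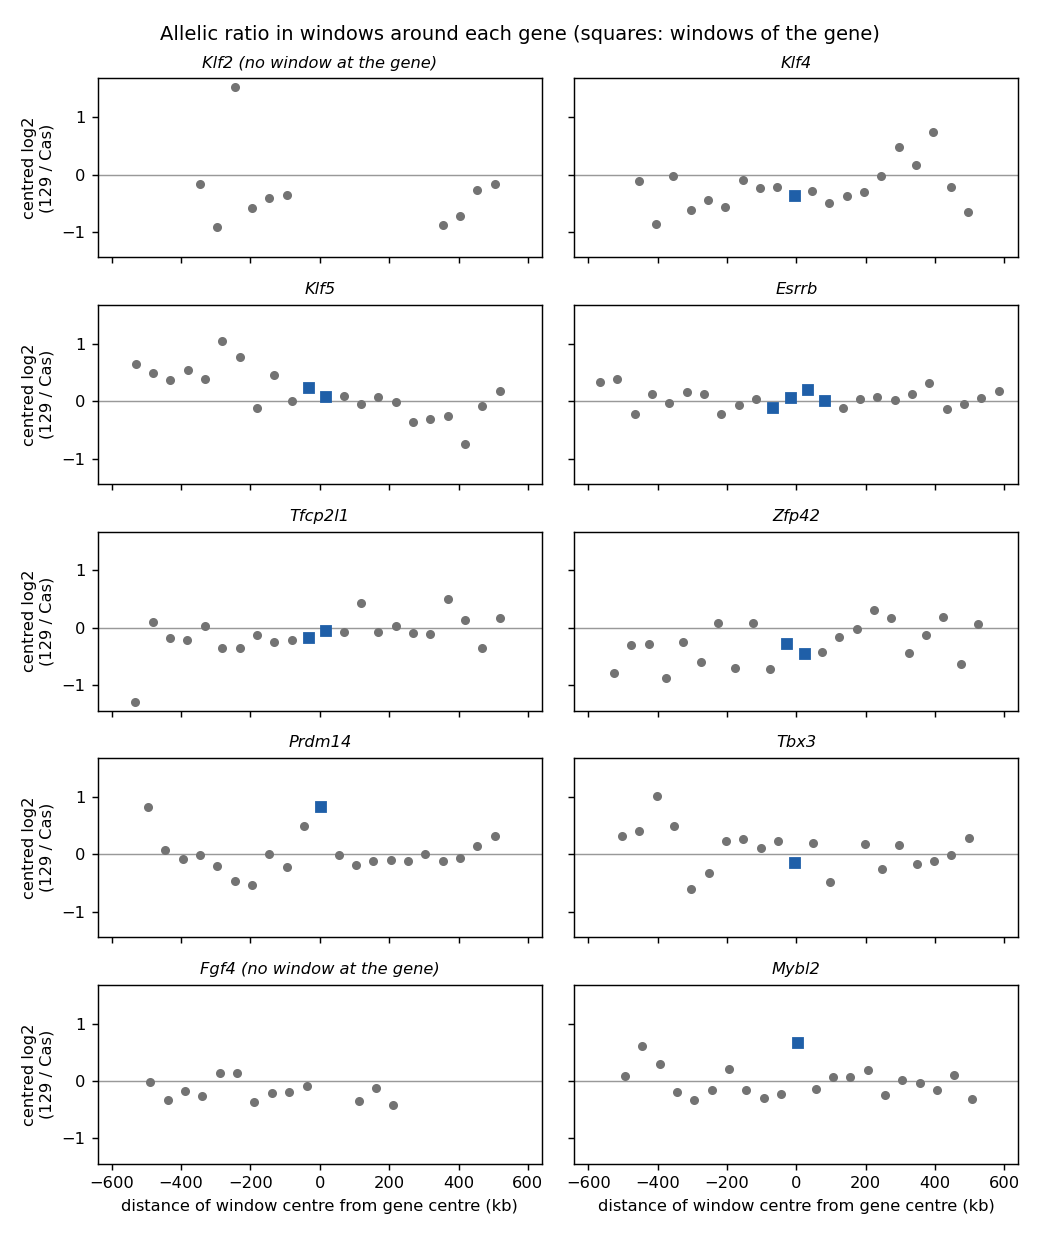
Centred log2 ratio of 129 to Cas (y axis) in 50 kb windows against the distance of the window centre from the gene centre (x axis, kb), 1 panel per gene; squares are windows of the gene and circles its context. The squares of Prdm14 (0.82) and Mybl2 (0.66) stand above the windows beside them, but more distant circles in these panels reach 0.82 and 0.62. The Esrrb squares lie among neighbours between -0.22 and 0.39. At Klf5 the circles before the gene (median 0.48) are higher than those after it (median -0.07).

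A further question was how far contacts extended on each allele. The table gives 1 distance per allele and window, so no test was possible, and whether this value is a mean or a median of the contacts is not given in the sources at hand. The median over the 14 windows was 152 kb for 129 and 105.5 kb for Cas, beside 183 and 187 kb over the 25395 windows with a protein-coding gene. Of the 14, 9 had the longer distance on 129 and 5 on Cas, while 48.7% of all windows with a ratio were longer on 129. The median log2 ratio of distances was 0.06 over the 14, but -0.10 over the 5 windows with a start from the promoter sequences. All 43555 windows with a ratio had a median of 0 and quartiles of -0.31 and 0.30. The shortest contacts were those of the first Esrrb window, at 14 kb on 129 and 18 kb on Cas, although the other 3 Esrrb windows were at 261, 396 and 180 kb for the 129 allele and 253.5, 276 and 171 kb for Cas.

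Of the 4 windows with the largest differences, Prdm14 and the second Tfcp2l1 window were longer on Cas and the first Klf5 window and the second Zfp42 window longer on 129. The Prdm14 distances were 268 (129) and 512 kb (Cas), 1.91-fold longer on Cas. In the second window of Tfcp2l1 it was 36 and 68.5 kb, 1.90-fold longer on Cas. In the first window of Klf5 it was 221 and 102 kb, 2.17-fold longer on 129, and in the second window of Zfp42 194 and 109 kb, 1.78-fold longer on 129. Klf4 was longer on 129 too, at 238 and 175.5 kb. Mybl2 was longer on Cas, at 72 and 86 kb, and Tbx3 differed least, at 91 and 89.5 kb. The Mybl2 difference lay within the quartiles of all windows. In log2 distance ratio, Prdm14 and the second Tfcp2l1 window were at the 9.56 and 9.64 percentiles of all windows with a ratio. The first Klf5 and second Zfp42 windows were at the 93.0 and 89.4 percentiles, so windows this unequal were not rare. Klf5, next to Mybl2 in share, was longer on 129 in both windows, as were Klf4 and Zfp42, the lowest in share, in all of theirs.

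The surroundings differed in distance as well. Around Klf5, the window after the gene (99350001 to 99400000), with 2310 and 1588 interactions, had distances of 94 kb on 129 and 34 kb on Cas, while 3 windows within Pibf1 before the gene had 164, 576 and 197 kb for 129 and 436.5, 1765.5 and 529 kb for Cas. After Tfcp2l1, 7 of 10 windows were longer on Cas, including the window with Gli2 named above, at 49 and 125 kb. Around Zfp42, 13 of 20 flanking windows were longer on 129, and before the gene a window without a protein-coding gene (43050001 to 43100000) had 325 kb for 129 and 82 kb for Cas. Flanking distances around Tbx3 and Klf4 were long in the median, at 1783 and 1635 kb and 1491 and 1455 kb, whereas the genes themselves were at 91 kb or less and at 238 kb or less. Most of these flanking windows held no protein-coding gene, and without bait positions their distances may not be comparable with those of the genes. At 20 or more interactions per allele, the most unequal distances in any of the 10 contexts were in a window before Tbx3 (119550001 to 119600000), at 1242 kb for 129 and 119 kb for Cas, 10.4-fold longer on 129. The next largest were after Klf5 (99800001 to 99850000), at 72 and 475.5 kb, longer on Cas. The largest differences in the remaining contexts were smaller than these. The edge window before Prdm14 named above had 1230.5 and 308 kb, and a window before Mybl2 (162700001 to 162750000) 1189 and 422.5 kb. The Irf2bpl window after Esrrb had 49 and 122.5 kb. A window after Klf2 (72800001 to 72850000) had 1165 and 510 kb, one after Klf4 (55850001 to 55900000) 1969.5 and 862 kb, and that of Shank2 and Cttn before Fgf4 102 and 57 kb.

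**Figure D4:**
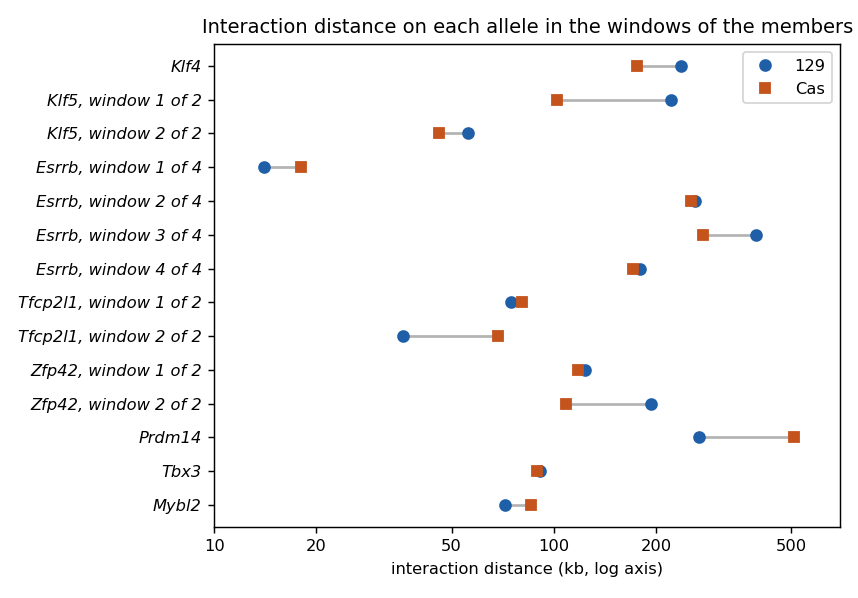
Interaction distance (x axis, kb, log scale) on the 129 (circles) and Cas (squares) allele in each of the 14 windows of the members (y axis), numbered along the chromosome where a gene has several. The longest lines join the alleles at the first Klf5 window (221 and 102 kb), the second Tfcp2l1 window (36 and 68.5 kb), the second Zfp42 window (194 and 109 kb) and Prdm14 (268 and 512 kb).

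The last comparison set the loci beside other genes of pluripotency and its exit. The core factors were close to the median of all windows: Pou5f1, which encodes Oct4, had 3534 interactions on 129 and 2512 on Cas (0.04), Sox2 2566 and 1850 (0.02), and Nanog 1414 and 1039 (-0.01). Their share ran from 57.6 to 58.5%, whereas that of the 8 naive loci ran from 50.7 to 70.8%. This difference in range was not tested, and 3 genes give little basis for a range. Of 18 other genes of the naive network and the LIF pathway, such as Lifr, Stat3 and Socs3, 8 were above 0 and 10 below, with a median of -0.01. The highest was Pim1, a kinase gene and Stat3 target, with 414 and 166 (0.86), and the lowest Tdgf1, which encodes the Nodal co-receptor Cripto, with 1695 and 1518 (-0.29). Of the 12 genes of the formative and primed states, 10 had windows, with a median of -0.10, and ranged from Cdh2 (-0.32) to the ETS factor gene Etv5 (0.93). The 11 genes of the exit from naive pluripotency had a median of 0.03, from Tsc2 (-0.32) to Fgfr1 (0.30). Of 20 paralogs of the members 19 had windows, with a median of -0.05, from Klf12 (-0.62) to Tbx2 (0.57). The beta-binomial test called no gene of these lists, against 1.36% of all protein-coding loci. The exact binomial test called 7 above the autosomal share and 5 below it among the naive and LIF genes, 4 and 4 among the formative, 4 and 2 among the exit genes, 3 and 8 among the paralogs, and 0 among the core factors, against backgrounds of 29.2 and 38.3% of all loci.

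**Figure D5:**
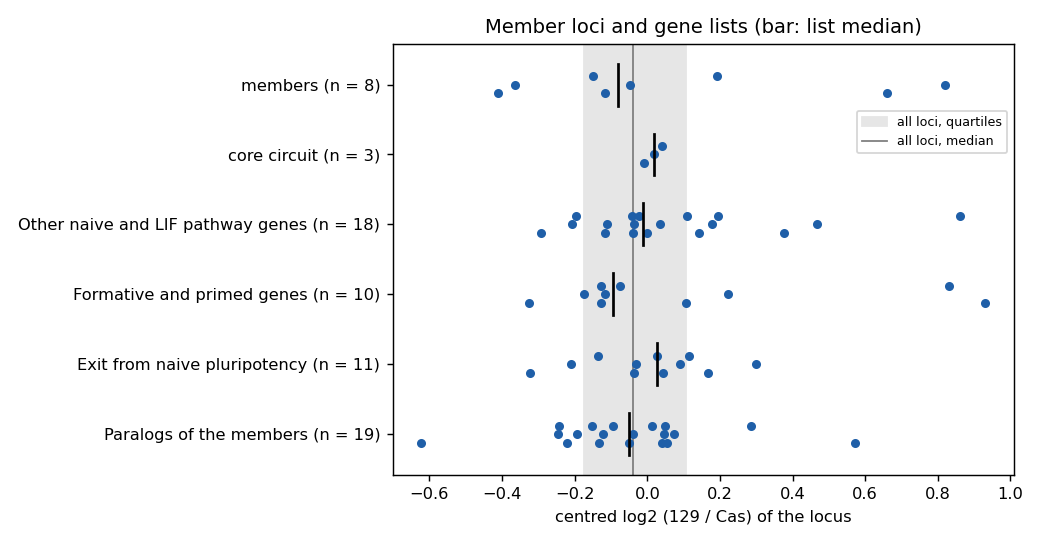
Centred log2 ratio of 129 to Cas (x axis) of each gene locus in 6 lists (y axis); points are genes, black bars list medians, the grey band the quartiles of all protein-coding loci and the grey line their median (-0.04). The 8 members spread from -0.41 to 0.82, and the 3 core factors lie between -0.01 and 0.04.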

How the data were processed

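Promoter Capture Hi-C was carried out on 2 samples of F121-6 ES cells fixed in 2% formaldehyde and sequenced with reads of 100 bp, per the labels' protocols. The submitters' processing notes name Bowtie2 and mm10, and the assignment of reads to alleles, filters and merging are not given in the sources used here. Whether mapping to a reference favoured an allele was not tested. The authors deposited whole-number counts of interactions per 50 kb window and allele, not normalised, and a distance of another unit, taken to be in bp since the deposited values are multiples of 500; whether it is a mean or a median is unknown.

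Loci and windows with 10 or more interactions in all entered a beta-binomial test whose overdispersion was fitted by maximum likelihood (0.0109 for loci, 0.0165 for windows) and by an exact binomial test, both checked on simulated data. Distances were compared at 10 or more interactions per allele. Log2 ratios used a pseudocount of 1 and were centred on the median of all windows. Window starts were raised by 1. Members, lists and tests were chosen with earlier results of these data known. The rule named every member, in each context the windows of highest and lowest ratio at a summed count of 100 or more, of highest count and of most unequal distances where each allele had 20 or more, and the extremes of each list. The rows for Klf12 and the windows adjoining a member, and further windows of Tmem63c, Pibf1, Sulf1, Slco5a1, Rad23b and the ADAM genes, were chosen after their values were seen. Klf12 was also an extreme of its list. Tbx5, and the pair of windows without a protein-coding gene before Klf4, were not picks of the rule. The labels do not say whether both replicates were separate cultures. Tests ran in scipy 1.17.1 under Python 3.11.15, with pandas 2.3.3 for tables, matplotlib 3.10.9 for plots and numpy 2.4.6. Klf2 and Fgf4 were not analysed here at their own windows.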

Additional observations from a re-analysis of the deposited data

How the results depend on the processing

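Of 51 alternative values, 47 stayed on their side of the threshold or within the spread and 4 moved, all for single loci: Klf5 (0.31) and Zfp42 (-0.30) when centred on their own chromosome, and Esrrb (-0.11) and Tfcp2l1 (-0.18) when only the window of the start was used. Own-chromosome shares, equal shares, a summed count of 100 or more and the start window left 0 member loci called by the beta-binomial test, against 7 of 8 by the exact binomial test (5 of 5 with the start window, which the promoter sequences gave for 5 loci). With an equal share as the null, the 7 loci called were all higher on 129, in place of 3 above the autosomal share, but 93.8% of all protein-coding loci were called. Over all protein-coding loci the beta-binomial test then called 53 in place of 252, and 96.3% of the calls of the exact binomial test were higher on 129, in place of 43.2% above the autosomal share. Over all windows the calls were 120 in place of 413 and 36272 in place of 22494 (82.9% in place of 51.4%), and 12 of the 14 member windows were called in place of 10. The median distance ratio was -0.10 with the 5 start windows, against 0.06. The median ratio of the loci ran from -0.18 to -0.06 over its alternatives. No paired analysis was possible because the columns carry no replicate numbers, and for the same reason no replicate could be left out. At Prdm14, 842 interactions limit the 129 share to an interval of 67.6 to 73.8%.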

Other observations

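Some genes of the other lists also had a high 129 share. Etv5, an FGF-responsive ETS factor gene on chromosome 16, had 2141 interactions on 129 and 820 on Cas over 2 windows, a 129 share of 72.3%, with an adjusted beta-binomial p of 0.161. Lef1, a nuclear effector of Wnt signalling on chromosome 3, had 3956 and 1625 over 3 windows, 70.9%, with an adjusted beta-binomial p of 0.294. Dppa2, an ES cell chromatin factor gene on chromosome 16, had 1453 and 768, 65.4%, while its neighbour Dppa4 had 1499 and 1112. These genes were chosen after their values were seen.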
